A study of Mus musculus with 12 samples.

Results

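The effect of ectopic Norrin that was common to 2 stages of mouse yolk sac development was measured on all 12 of the 12 arrays of the study. They were chosen by their titles: 6 arrays of Z/Norrin yolk sacs and 6 of wild type yolk sacs, with 3 of each genotype at embryonic day 8.5 (E8.5) and 3 of each at E10.5. Z/Norrin mice carry a conditional allele from which Norrin is over-expressed outside its normal sites; the Cre driver that switches the allele on is not given in the sources used here. Each array holds total RNA of yolk sacs pooled from 3 to 5 embryos of both sexes on a mixed C57Bl6/129 background. The p-values of the paired fit used below measure the spread of Norrin minus wild type differences between pairs of pools. They do not measure the spread between embryos. The values are log2 expression levels per probe set, the set of probes on the array that reads 1 transcript, and a difference of 1 on this scale is a 2-fold change. The Norrin effect is Norrin minus wild type, always within a stage.

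Norrin is a small secreted protein that binds the receptor Frizzled4. With the coreceptors Lrp5 or Lrp6 and the tetraspanin Tspan12, the bound receptor keeps beta-catenin from being degraded, and beta-catenin then acts with DNA-binding factors of the TCF/LEF family. Norrin is best known for its part in the growth of retinal vessels and the blood-retina barrier. The yolk sac has an outer visceral endoderm that takes up nutrients and secretes plasma proteins, and an inner mesoderm that forms the first blood cells and vessels; parietal endoderm, a separate layer, lays down a thick basement membrane.

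The arrays carried the RNA of this tissue. The endoderm products Afp (13 to 14.8 over the 12 arrays), Ttr (14.1 to 14.5) and Apoa1 (13.4 to 14.5) and the embryonic globins Hba-x (14 to 14.7) and Hbb-bh1 (13.9 to 14.7) were among the highest of the 18193 genes measured. The endothelial genes Kdr and Cdh5 lay at 8.78 to 10.9 and 7.78 to 9.38, above the median gene level of 7.68. Ndp, the gene for Norrin itself, lay at 4.45 to 4.68 on all 12 arrays and showed no difference of genotype (-0.023 ± 0.06 (SE), adjusted p = 0.853). Whether its probe set reads the transcript of the transgene is not given in the sources used here, so Ndp does not check the genotype labels. Correlations between arrays of a group were 0.975 to 0.992.

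The TCF/LEF match in the upstream DNA of genes that moved at both stages is shown first, since these factors are the DNA-bound end of the Norrin pathway. Of the 30 genes named below as shared by both stages, 24 had an entry in the RefSeq promoter table (33 windows of 250 bases that end at the start of the transcript, build GRCm38.p6). The letters CTTTGAT, or those of a second TCF/LEF motif, CTTTGTT, on either strand, were present in 4 of the 33 windows. The windows are printed 5′ to 3′ along the strand of the gene, with the match in capitals; a match on the other strand reads ATCAAAG or, for the second motif, AACAAAG. Dkk1, a secreted Wnt antagonist, has its window at chr19:30549497-30549746 on the minus strand and a match that begins at position -98 relative to the start of the transcript. Tnfrsf19, a receptor of the TNF family, has chr14:61037988-61038237 on the minus strand and a match at position -202. The window of its start further upstream has none. Retreg1, a receptor for the turnover of endoplasmic reticulum, has chr15:25933302-25933551 on the plus strand and a match at position -138. The other windows of Retreg1, among them that of its start furthest upstream, have none. Serpind1, the coagulation inhibitor heparin cofactor II, has chr16:17331121-17331370 on the plus strand and a match at position -94.
Dkk1: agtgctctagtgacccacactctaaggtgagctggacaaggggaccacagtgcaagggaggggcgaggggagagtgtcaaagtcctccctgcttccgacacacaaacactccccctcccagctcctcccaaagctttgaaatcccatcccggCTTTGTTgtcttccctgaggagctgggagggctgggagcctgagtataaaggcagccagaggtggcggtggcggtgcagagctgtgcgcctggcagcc
Tnfrsf19: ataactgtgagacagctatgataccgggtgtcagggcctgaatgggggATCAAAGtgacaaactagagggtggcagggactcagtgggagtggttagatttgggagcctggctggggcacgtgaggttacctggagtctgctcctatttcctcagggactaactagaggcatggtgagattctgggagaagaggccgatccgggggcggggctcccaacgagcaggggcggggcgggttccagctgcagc
Retreg1: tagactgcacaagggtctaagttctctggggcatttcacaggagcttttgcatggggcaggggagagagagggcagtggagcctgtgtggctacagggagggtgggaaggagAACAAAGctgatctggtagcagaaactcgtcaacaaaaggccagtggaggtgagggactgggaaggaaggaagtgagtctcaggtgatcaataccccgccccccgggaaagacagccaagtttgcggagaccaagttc
Serpind1: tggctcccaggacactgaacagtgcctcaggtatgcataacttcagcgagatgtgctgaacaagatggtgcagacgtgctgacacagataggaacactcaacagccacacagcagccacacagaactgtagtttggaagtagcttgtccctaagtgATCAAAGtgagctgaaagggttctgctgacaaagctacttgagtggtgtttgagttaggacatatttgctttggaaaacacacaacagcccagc
The first 3 of these genes rose with Norrin and Serpind1 fell. The motif was about as frequent in the windows of genes that rose at both stages (14 of 193 windows, 7.25%) as in those of genes that fell at both (15 of 201, 7.46%), in those of all genes tested (6.61%) and in all windows of the table (8.06%). Matches to Sox motifs (the letters ATTGTTC, a second form CCATTGT, and another form ACAATAG, none of which contains a TCF/LEF motif or lies within one) were in 4.66% of the windows of genes that rose, 3.98% of those that fell, 5.13% of those of all genes tested and 6.73% of all windows. A match is a run of letters and not a measured binding site.

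The question the 12 arrays answer is which genes respond to Norrin at E8.5 and E10.5 alike. A model with 1 genotype effect for both stages, and with each Norrin array compared with the wild type array of its stage and replicate number, called 1149 of 18193 genes (6.32%) at an adjusted p under 0.05 (limma, Benjamini-Hochberg; in probe sets 2072 of 34945, 5.93%): 614 higher (3.37%) and 535 lower (2.94%). Without the pairing by replicate number 257 of them were called, and 892 were lost. Genes are called shared below when they also had effects of 1 sign at both stages and their 3 Norrin arrays lay apart from their 3 wild type arrays at each stage. This left 399 genes (2.19%), 190 higher (1.04%) and 209 lower (1.15%), and 222 of them kept their call without the pairing. Such a separation at both stages, called or not, was seen for 526 genes (2.89%). A shared gene need not be called at each stage: 27 of the 399 passed the stricter test of both stages given below.

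Among the called genes that are not shared, 481 were apart at E10.5 only, 128 at E8.5 only and 141 at neither. The 399 shared genes all moved 1 way in 6 of 6 pairs, as their definition requires. The median effect of the 190 that rose was 0.48 at E8.5 and 0.69 at E10.5, and that of the 209 that fell was -0.50 and -0.78. A change of at least 2-fold over both stages was reached by 33 of those that rose and 56 of those that fell. The effect was the larger at E10.5 for 310 of the 399, but the difference between stages passed its own test (limma interaction, adjusted p under 0.05) for 23, of which 4 rose and 19 fell, against 302 of all genes (1.66%).

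The stages share no array, so the effect sizes of each can be set against those of the other. The calls of the stages are not independent, since the same fit over both gave each gene an equal SE at E8.5 and E10.5. In probe sets, 285 were called at E8.5, and 165 to 386 when a pair of E10.5 arrays was left out. The effect at E8.5 was called for 177 genes (0.973%), 91 higher (0.500%) and 86 lower (0.473%). That at E10.5 was called higher for 1051 genes (5.78%) and lower for 1132 (6.22%). Of the 91 higher at E8.5, 80 (87.9%) had an effect above 0 at E10.5 and 53 (58.2%) were called higher there. Of the 86 lower at E8.5, 80 (93%) were below 0 at E10.5 and 62 (72.1%) were called lower. Seen from E10.5, 53 is 5.04% of the 1051 and 62 is 5.48% of the 1132. Over all 18193 genes the sign was the same at both stages for 10874 (59.8%). Across genes, which are not independent replicates, the effects correlated at r = 0.414 (Spearman's rho = 0.294). Only Dram1, a lysosomal membrane protein, and Tnc, the matrix protein tenascin C, were called at both stages in opposite directions. The effects were 1.22 at E8.5 and -0.913 at E10.5 for Dram1, and -0.534 and 0.738 for Tnc.

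**Figure D1:**
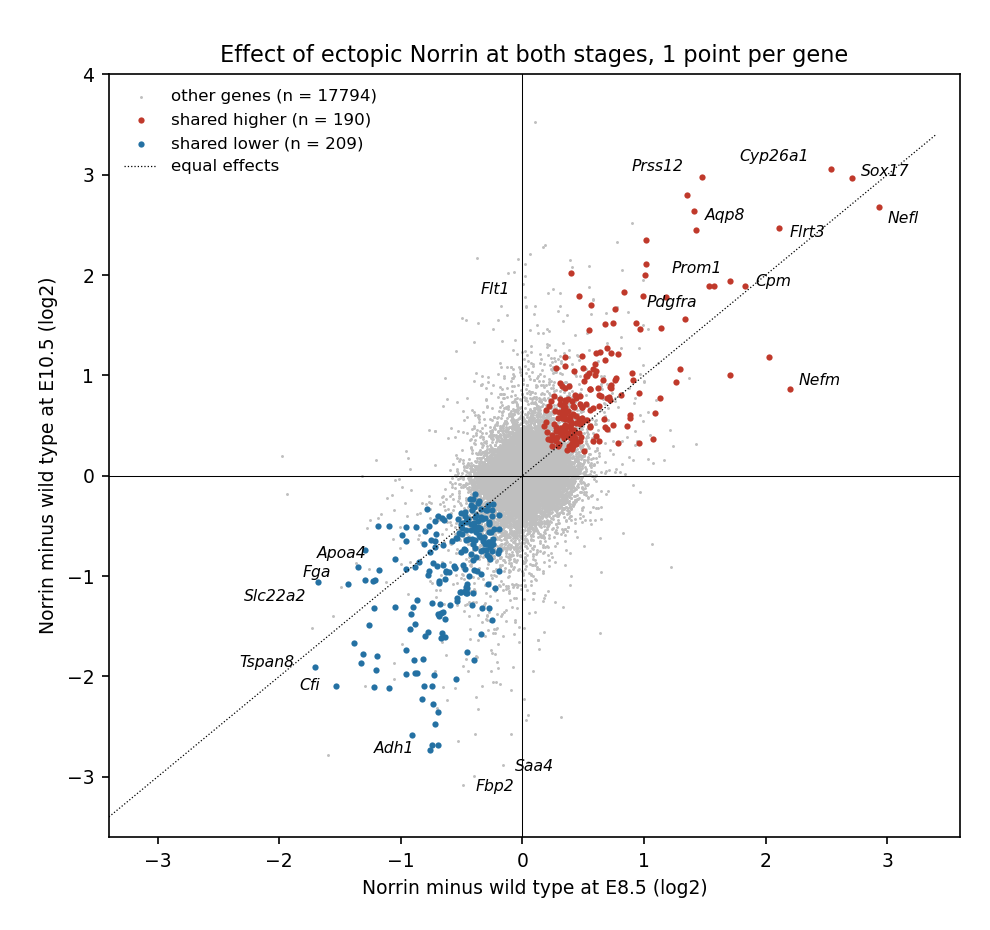
Norrin effect at E10.5 (vertical axis, log2) against that at E8.5 (horizontal axis, log2), 1 point per gene for 18193 genes. Red points are the 190 shared genes that rose and blue points the 209 shared genes that fell. Grey points are the other 17794, and the dotted line marks equal effects. Sox17, Nefl and Cyp26a1 lie at the upper right end and Tspan8 and Cfi at the lower left.

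A stricter reading asks the effect at each stage to pass, with the residual variance of a gene still pooled over both stages. The larger of the p-values of the 2 stages, adjusted over all probe sets, was under 0.05 for 32 genes (0.176%), 17 higher (0.0934%) and 15 lower (0.0824%). In probe sets the count was 45 (0.129%) with the pairing, 4 without it, and 1 to 49 when 1 pair of arrays was left out. The 17 higher genes include Sox17, Nefl, Cyp26a1, Flrt3, Cpm, Prom1, Pdlim4, Msx2 and P4ha1, and the 15 lower genes include Cfi, Slc47a1, Acss1, Slc22a2, Fga, Fgg, Tns1, Apoa4 and Adh1. Prom1, Nefl and Cyp26a1 passed this test without the pairing too, with adjusted p = 0.00137, 0.0328 and 0.0328, and Sox17 and Cpm just missed it (adjusted p = 0.0515 and 0.0515).

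Sox17, a transcription factor of endoderm and of arterial endothelium, showed the largest rise among the shared genes, with Nefl and Cyp26a1 within its error. The log2 levels of Sox17 in wild type were 8.44, 8.66 and 7.0 at E8.5 and 7.24, 7.71 and 7.69 at E10.5, and those in Norrin were 10.82, 10.85 and 10.58 and 10.63, 10 and 10.92. The groups were well apart at each stage: the highest wild type array read 8.66 and the lowest Norrin array 10.58 at E8.5, and 7.71 and 10 were the corresponding values of the later stage. The effect was 2.84 ± 0.19 (SE), adjusted p = 0.00108, a 7.17-fold rise. Sox17 lies on chromosome 1 at 4490928 to 4497426 (GRCm38.p6), and its second probe set gave 2.47.

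Prom1, which encodes the membrane glycoprotein prominin 1 (CD133), had the smallest adjusted p of the 30 named genes. Wild type pools gave Prom1 levels of 7.78, 7.54 and 7.54 at E8.5 and Norrin pools 9.33, 9.15 and 9.51; at E10.5 they gave 8.27, 8.15 and 8.14 and 10.36, 9.95 and 10.07. The Norrin pools stood more than 1 log2 unit above every wild type pool of their stage. The effect was 1.82 ± 0.09 (SE), adjusted p = 0.000112, a 3.54-fold rise, and it kept an adjusted p = 4.54e-06 without the pairing. Prom1 lies on chromosome 5 at 43993621 to 44102047.

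Cyp26a1 encodes the cytochrome P450 that breaks down retinoic acid, and it is also a known target of beta-catenin. At E8.5 Cyp26a1 read 8.04, 9.07 and 8.17 in the wild type pools and 10.58, 11.12 and 11.2 in the Norrin pools, and at E10.5 7.49, 7.82 and 7.51 and 11.33, 10.19 and 10.46. The lowest Norrin array was above the highest wild type array by more than 1 unit at each stage. Its effect was 2.8 ± 0.2 (SE), adjusted p = 0.00108, a 6.94-fold rise (chromosome 19, 37697738 to 37701536).

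Nefl encodes the light chain of neurofilaments, the intermediate filaments of axons. The log2 levels of Nefl in wild type were 5.49, 6.25 and 5.91 at E8.5 and 5.2, 4.51 and 5.31 at E10.5, and those in Norrin were 9.1, 9.35 and 8.01 and 7.58, 7.98 and 7.5. The groups stood well apart at both stages, and the effect was 2.81 ± 0.21 (SE), adjusted p = 0.00112, a 7-fold rise (chromosome 14, 68083863 to 68089095). Its neighbour Nefm, the medium chain, at 68119545 to 68125004, also rose at both stages (1.53 ± 0.24 (SE), adjusted p = 0.0112), with 2.2 at E8.5 against 0.86 at E10.5 (interaction adjusted p = 0.014). Most other neural markers were not called. Of 18 neural genes 3 were called higher (Nefl, Nefm and Crabp1) and 1 lower (Stmn2, -0.41 ± 0.09 (SE), adjusted p = 0.0296). This is 22.2%, against 6.32% of all genes. Without the pairing 2 of them were called, Nefl and Nefm. The median effect of the list was 0.024, and Sox2, Map2 and Otx2 were below a log2 level of 5 on all 12 arrays.

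Flrt3, a transmembrane adhesion protein with leucine-rich repeats, rose 4.89-fold (2.29 ± 0.2 (SE), adjusted p = 0.00143). Wild type pools gave Flrt3 levels of 8.06, 8.0 and 6.98 at E8.5 and Norrin pools 9.61, 9.59 and 10.17; at E10.5 they gave 7.86, 7.33 and 7.9 and 10.55, 9.48 and 10.46. Cpm, a membrane-bound carboxypeptidase, had effects of 1.83 and 1.89 at the 2 stages and 1.86 ± 0.17 (SE), adjusted p = 0.00164 over both. Its second probe set gave 2.06, and that of Flrt3 2.6. The remaining genes of the 15 named for a shared rise were Prss12 (2.23), Retreg1 (2.07), Aqp8 (2.02), Pth1r (1.94), Pdgfra (1.71), Tnfrsf19 (1.6), Dkk1 (1.48), Pdlim4 (1.45) and Plac1 (1.31). Their adjusted p-values ran from 0.00143 (Pdlim4) to 0.0387 (Plac1). Prss12 is a secreted protease, Aqp8 a water channel, Pdlim4 an actin-binding protein and Plac1 a gene of the placenta. The rank follows the smaller of the effects at the 2 stages: Plac1, the last named, had 1.14 and the next gene, Smarcd3, 1.06. Only shared genes whose level in the higher genotype reached the median of all genes were ranked, which leaves out Rcan2 (1.57 and 1.89).

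**Figure D2:**
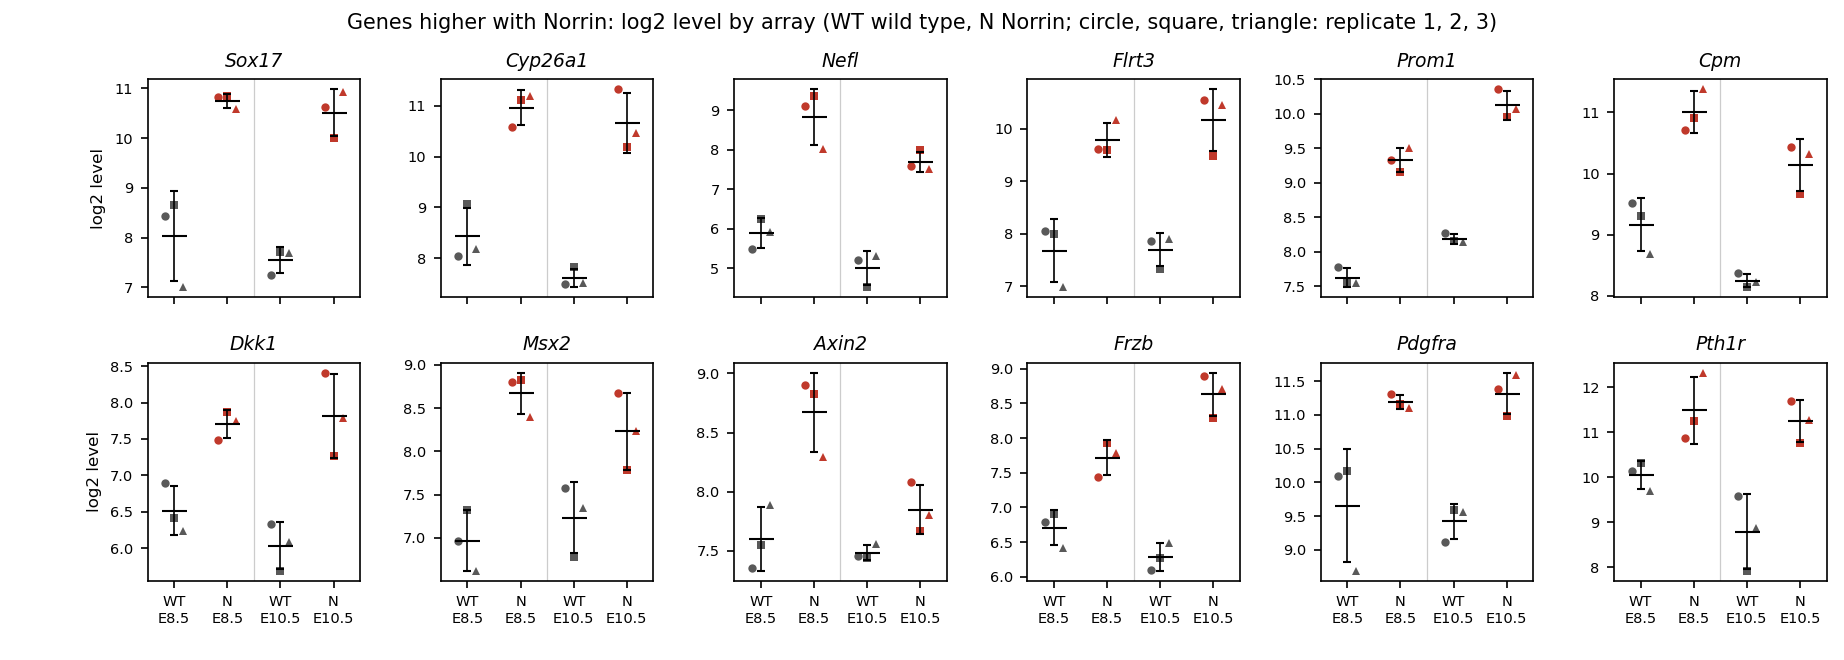
Log2 level (vertical axis) of 12 genes that rose, on each of the 12 arrays; columns are wild type (WT, grey) and Norrin (N, red) at E8.5 and E10.5, symbols mark replicate numbers, horizontal bars are means and vertical bars SDs of 3 arrays. In all 12 panels the 3 Norrin arrays lie above the 3 wild type arrays of the same stage.

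All calls among known targets of beta-catenin were upward. Their list, like all 23 lists here, was chosen with earlier results of these data known, so its shares describe it and test nothing. Of 24 measured, 6 were called higher and 0 lower (25.0%, against 6.32% of all genes). Of the 6 called, 5 were shared, and 19 of the 24 had an effect above 0. The median effect was 0.18 against -0.016 over all genes. Dkk1, which blocks Wnt signals by binding the coreceptors Lrp5 and Lrp6, had log2 levels of 6.89, 6.42 and 6.24 in wild type against 7.49, 7.87 and 7.75 in Norrin (E8.5), and of 6.34, 5.69 and 6.08 against 8.41, 7.26 and 7.79 (E10.5). Its groups did not overlap at either stage, and the effect was 1.48 ± 0.16 (SE), adjusted p = 0.00279, a 2.8-fold rise. Msx2, a homeobox factor, rose 2.56-fold (1.35 ± 0.13 (SE), adjusted p = 0.0024). At E8.5 Msx2 read 6.96, 7.32 and 6.62 in the wild type pools and 8.8, 8.82 and 8.4 in the Norrin pools, and at E10.5 7.58, 6.78 and 7.34 and 8.67, 7.78 and 8.24. A second, dimmer probe set of Msx2 gave -0.0054, with no rise at either stage.

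Axin2, a feedback inhibitor widely used as a readout of beta-catenin, had log2 levels of 7.36, 7.55 and 7.89 in wild type against 8.9, 8.83 and 8.29 in Norrin (E8.5), and of 7.46, 7.44 and 7.56 against 8.08, 7.67 and 7.8 (E10.5). The groups did not overlap, but at E10.5 the highest wild type array (7.56) lay close under the lowest Norrin array (7.67). The effect was 0.72 ± 0.18 (SE), adjusted p = 0.0464, with 1.07 at E8.5 and 0.37 at E10.5, and the difference between stages was not called (adjusted p = 0.239). The call was lost in 10 of 16 other settings of the analysis, over which the adjusted p ran from 0.0112 to 0.112 (limma), though not when the pairing was dropped (adjusted p = 0.0497). A second, dimmer probe set of Axin2 gave 0.36 and was not called. Cdx2, a homeobox factor (0.52 ± 0.08 (SE), adjusted p = 0.012), was the fifth shared gene of the list. Its effect at E8.5 was not called (adjusted p = 0.09935, limma), nor was that of Axin2 at E10.5 (adjusted p = 0.2801, limma). Apcdd1, a membrane-bound Wnt inhibitor, was called without separation at both stages. Without the pairing the call was lost for Cdx2 (adjusted p = 0.0659) and for Apcdd1. Msx1 (0.66 ± 0.19 (SE), adjusted p = 0.0763) and the receptor ubiquitin ligase Znrf3 (0.58 ± 0.15 (SE), adjusted p = 0.057) missed the threshold.

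Genes of the signal itself moved less. None of the 5 genes of the receptor complex was called: Ndp -0.023, Fzd4 0.029, Lrp5 -0.25, Lrp6 -0.22 and Tspan12 0.072, with adjusted p from 0.134 to 0.853 (limma). The sign of the effects of Ndp, Fzd4 and Tspan12 turned under quantile normalization or with a pair of arrays left out. Among 31 receptors and ligands of the Wnt family 3 were called higher and 0 lower (9.68%, against 6.32% of all genes). None of the 3 was apart at both stages. They were the ligand Wnt5a (0.78 ± 0.17 (SE), adjusted p = 0.0304) and the receptors Fzd2 (0.62 ± 0.11 (SE), adjusted p = 0.0177) and Fzd6 (0.6 ± 0.15 (SE), adjusted p = 0.0468). Wnt5a and Fzd6 lost their calls without the pairing (adjusted p = 0.239 and 0.0979). Each had another probe set with an effect below 0 (-0.07 for Wnt5a and -0.12 for Fzd6). Their remaining probe sets lay above 0, at 0.681 (called) and 0.325 for Wnt5a and 0.405 for Fzd6.

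Secreted Wnt antagonists gave 3 calls of 14 (21.4%, against 6.32% of all genes), all higher and all shared: Frzb, Dkk1 and Dkk3. Frzb, a soluble frizzled-related protein that binds Wnt ligands, had log2 levels of 6.79, 6.91 and 6.42 in wild type against 7.44, 7.93 and 7.79 in Norrin (E8.5), and of 6.09, 6.27 and 6.49 against 8.9, 8.29 and 8.71 (E10.5). The effect was 1.68 ± 0.25 (SE), adjusted p = 0.00927, 1.02 at E8.5 and 2.35 at E10.5 (interaction adjusted p = 0.0357). Dkk3 rose by 0.46 (adjusted p = 0.0131). Dkk2 (0.18, adjusted p = 0.173) and Sfrp1 (-0.22, adjusted p = 0.11) were not called.

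Retinoid genes split. Of 20 measured, 3 were called higher and 3 lower (30.0%, against 6.32% of all genes), and the median effect was -0.068. Beside Cyp26a1, the retinol dehydrogenase Rdh10 (1.13 ± 0.24 (SE), adjusted p = 0.0288) and the retinoic acid binding protein Crabp1 (1.17 ± 0.24 (SE), adjusted p = 0.0286) rose, and both lost their calls without the pairing (adjusted p = 0.0541 and 0.0902). Crabp1 overlapped at E10.5, where Norrin replicate 2 read 5.11 and the wild type arrays 5.12 to 5.47. Adh1, an alcohol dehydrogenase that also oxidises retinol, had log2 levels of 7.33, 7.17 and 8.08 in wild type against 6.65, 6.56 and 7.14 in Norrin (E8.5), and of 10.5, 11.08 and 10.43 against 7.99, 8.39 and 7.59 (E10.5). It fell at both stages, far more at E10.5 (-0.74 against -2.68, interaction adjusted p = 0.00164; over both -1.71 ± 0.33 (SE), adjusted p = 0.0218). Dhrs3 and Rbp4, the plasma carrier of retinol, were the other genes called lower.

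All calls among genes of parietal endoderm and basement membrane were upward too, in a list also chosen with earlier results of these data known. Of 19 measured, 9 were called higher and 0 lower (47.4%, against 6.32% of all genes), and 7 of the 9 were shared. The median effect was 0.45, with 0.35 at E8.5 and 0.55 at E10.5. Without the pairing 6 were called. Pth1r, the receptor for parathyroid hormone and its related peptide, had log2 levels of 10.13, 10.32 and 9.7 in wild type against 10.87, 11.25 and 12.32 in Norrin (E8.5), and of 9.59, 7.92 and 8.87 against 11.69, 10.76 and 11.27 (E10.5). The groups were apart at both stages, and the effect was 1.94 ± 0.27 (SE), adjusted p = 0.00795, a 3.83-fold rise (chromosome 9, 110722085 to 110747145).

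Pdgfra, a receptor for platelet-derived growth factor found on primitive endoderm and mesenchyme, rose 3.28-fold (1.71 ± 0.19 (SE), adjusted p = 0.00305). The log2 levels of Pdgfra in wild type were 10.1, 10.17 and 8.69 at E8.5 and 9.12, 9.59 and 9.56 at E10.5, and those in Norrin were 11.31, 11.16 and 11.1 and 11.38, 10.98 and 11.59. Col4a2, a chain of the basement membrane collagen, read 11.4 to 11.7 in wild type and 11.95 to 12.43 in Norrin at E8.5, and 11.44 to 11.65 against 12.54 to 12.95 at E10.5, an effect of 0.92 ± 0.15 (SE), adjusted p = 0.0125. Its partner Col4a1, the laminin chain Lama1, the endoderm factor Gata6, Sparc and Sox7 were the other called members. Plat (1.27 ± 0.34 (SE), adjusted p = 0.0588), Vim (0.31 ± 0.1 (SE), adjusted p = 0.108) and Krt19 (0.54 ± 0.27 (SE), adjusted p = 0.252) were not called. The mean log2 level of the list was 9.43 to 9.73 in wild type and 9.92 to 10.2 in Norrin at E8.5, and 9.75 to 9.78 against 10.6 at E10.5, with no overlap. In pooled tissue fewer or more cells of a type and less or more RNA per cell cannot be told apart.

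Mesenchyme genes gave 4 calls higher and 1 lower of 18 (27.8%), with a median effect of 0.19. Postn, a matrix protein, rose by 0.63 (adjusted p = 0.0132) and Dcn, a matrix proteoglycan, by 0.49 (adjusted p = 0.0129), both without a call when the pairing was dropped (adjusted p = 0.0592 and 0.42). Tcf21, a mesenchymal transcription factor, fell (-0.7 ± 0.13 (SE), adjusted p = 0.0193). Second, dimmer probe sets gave -0.014 for Dcn and -0.19 for Tcf21, and neither was called. Smooth muscle genes gave 1 call of 12 (8.33%, against 6.32% of all genes), Tpm1 (0.49 ± 0.11 (SE), adjusted p = 0.0357). Of 11 targets of BMP and TGF-beta signals Msx2 and Tgfbi (0.92 ± 0.19 (SE), adjusted p = 0.0262) were called (18.2%). Tpm1 and Tgfbi lost their calls without the pairing (adjusted p = 0.176 and 0.101).

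**Figure D3:**
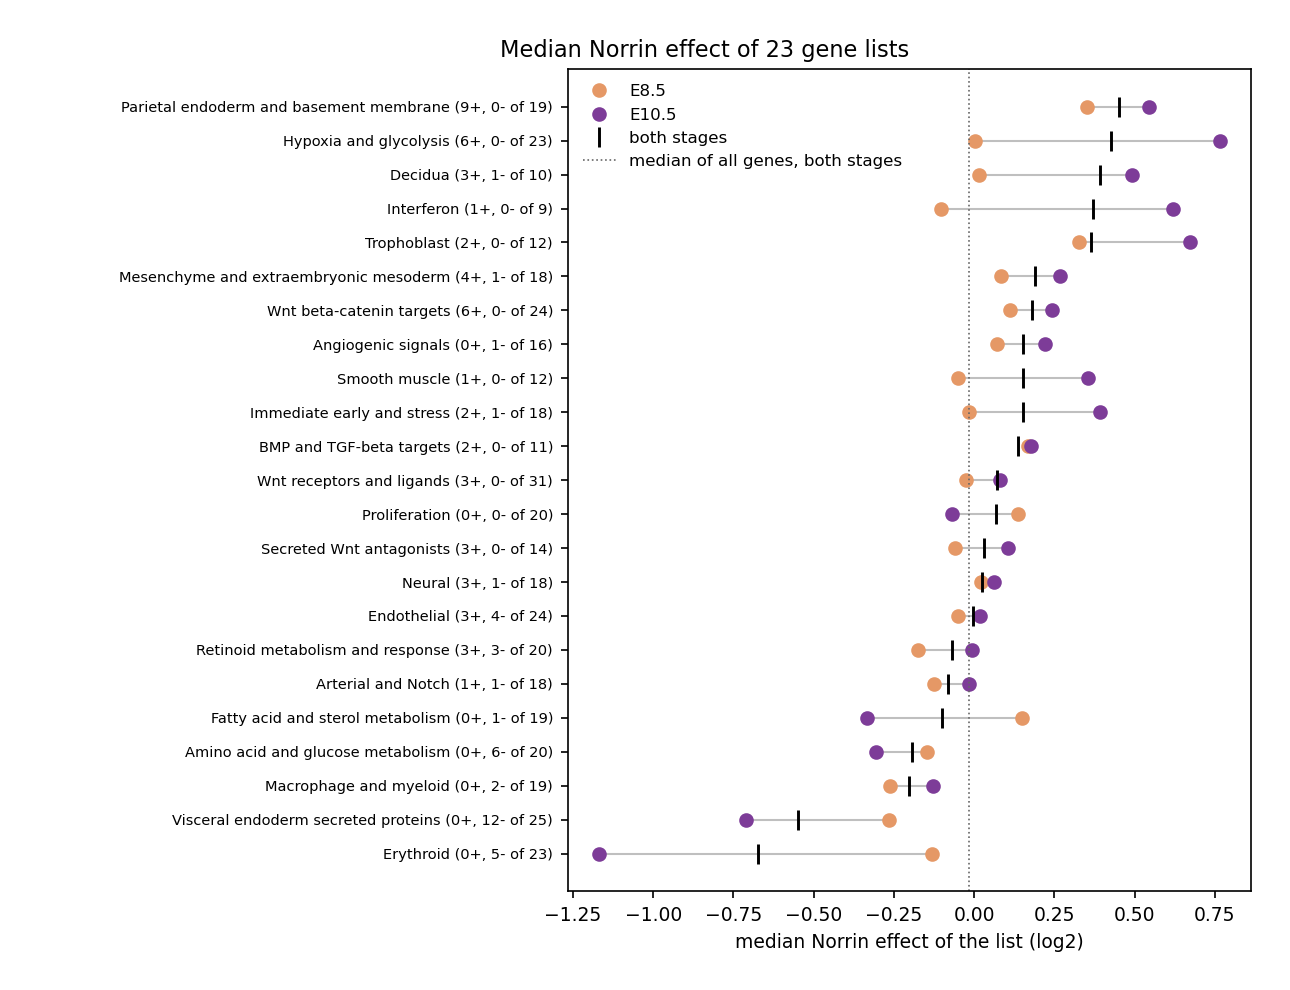
Median Norrin effect (horizontal axis, log2) of 23 gene lists at E8.5 (orange), at E10.5 (purple) and over both stages (black bar); the numbers after each name are genes called higher (+) and lower (-) over both stages, of the genes measured. Over both stages the parietal endoderm list lies highest at 0.45 and the erythroid list lowest at -0.675. At E10.5 hypoxia (0.77), trophoblast (0.67) and interferon (0.62) lie above parietal endoderm. At E8.5 visceral endoderm (-0.27), macrophage (-0.26), retinoid (-0.17) and amino acid and glucose metabolism (-0.15) lie below erythroid (-0.13). The dotted line is the median of all genes.

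Calls among the secreted proteins and regulators of visceral endoderm were all downward, in a list also chosen with earlier results of these data known. Of 25 measured 0 were called higher and 12 lower (48.0%, against 6.32% of all genes). Of the 12, 6 were shared, and 21 of the 25 had an effect below 0. The median was -0.55 over both stages, -0.27 at E8.5 and -0.71 at E10.5; without the pairing 4 were called. Fga, the alpha chain of fibrinogen, had log2 levels of 11.55, 10.91 and 12.06 in wild type against 9.74, 9.66 and 10.82 in Norrin (E8.5), and of 12.98, 13.5 and 12.85 against 11.75, 12.65 and 11.7 (E10.5). It was 2.38-fold lower over both stages (-1.25 ± 0.11 (SE), adjusted p = 0.00143) and did not overlap at either (chromosome 3, 83026153 to 83033627).

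Apoa4, an apolipoprotein made by visceral endoderm, was the tightest of them at E8.5. Wild type pools gave Apoa4 levels of 13.24, 13.21 and 13.19 at E8.5 and Norrin pools 12.07, 12.07 and 11.96; at E10.5 they gave 13.46, 13.79 and 13.45 and 12.19, 13.07 and 12.62. The effect was -1.06 ± 0.09 (SE), adjusted p = 0.00143, a 2.09-fold fall, and a second probe set gave -1.32. Serpina1b, a protease inhibitor of the alpha-1-antitrypsin family, fell by 1.62 (effect -1.62 ± 0.16 (SE), adjusted p = 0.00253), but its wild type pools at E8.5 spread from 7.77 to 10.26 and overlapped the Norrin pools (6.74 to 8.54). It and Serpina1c (effect -1.59 ± 0.37 (SE), adjusted p = 0.0407) lost their calls without the pairing (adjusted p = 0.0703 and 0.0787); the copies of this gene family are near-identical, and their probe sets may read more than 1 of them. Apob, Apoa1, Apoa2, Fgg, Fgb, Rbp4, the iron exporter Slc40a1 and the factor Hnf4a were the other members called lower. Alb (-1.41 ± 0.58 (SE), adjusted p = 0.178), high on 1 wild type array at E10.5 (12.85, against 8.82 and 9.06), was not called.

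The 15 genes named for a shared fall, ranked with the same limit on level, included plasma proteins, membrane carriers and metabolic enzymes. Beside these were the surface protein Tspan8 and the adaptor Tns1. Cfi, complement factor I, a secreted protease, fell 3.51-fold (-1.81 ± 0.16 (SE), adjusted p = 0.00143). At E8.5 Cfi read 10.47, 9.51 and 11.21 in the wild type pools and 9.01, 8.18 and 9.4 in the Norrin pools, and at E10.5 12.41, 12.5 and 12.14 and 9.67, 10.88 and 10.23. At E8.5 the lowest wild type pool (9.51) lay close above the highest Norrin pool (9.4), and at E10.5 the gap was more than 1 unit. Serpind1 had log2 levels of 8.44, 8.37 and 9.75 in wild type against 7.22, 7.5 and 8.17 in Norrin (E8.5), and of 11.08, 11.41 and 10.73 against 8.41, 9.42 and 9.07 (E10.5), an effect of -1.67 ± 0.2 (SE), adjusted p = 0.00446. Plg, plasminogen, the precursor of the clot-dissolving protease plasmin, was lower by 2.76-fold (-1.47 ± 0.2 (SE), adjusted p = 0.00699).

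Membrane carriers came next. Slc22a2, which carries organic cations into cells, had log2 levels of 8.17, 7.91 and 8.56 in wild type against 6.35, 6.43 and 6.84 in Norrin (E8.5), and of 10.2, 9.63 and 9.92 against 8.69, 8.96 and 8.92 (E10.5). The groups were apart at both stages, and the effect was -1.37 ± 0.14 (SE), adjusted p = 0.00279, a 2.58-fold fall (chromosome 17, 12584189 to 12628489). Slc47a1, which exports organic cations, fell 2.91-fold (-1.54 ± 0.15 (SE), adjusted p = 0.00227). The log2 levels of Slc47a1 in wild type were 7.68, 6.96 and 8.08 at E8.5 and 9.94, 10.13 and 9.4 at E10.5, and those in Norrin were 6.32, 6.08 and 6.39 and 7.73, 8.31 and 8.11. The drug exporter Abcb1b fell too (-1.6 ± 0.32 (SE), adjusted p = 0.0252), but lost its call without the pairing (adjusted p = 0.0589) and its second probe set gave -0.091. Slc27a2, a fatty acid carrier and acyl-CoA synthetase, changed by -1.52 (adjusted p = 0.0024).

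Metabolic enzymes were a further group. Acss1, a mitochondrial acetyl-CoA synthetase, had log2 levels of 8.85, 7.81 and 8.96 in wild type against 7.23, 6.99 and 7.8 in Norrin (E8.5), and of 10.18, 10.7 and 10.23 against 8.2, 8.95 and 8.57 (E10.5). Its effect was -1.5 ± 0.14 (SE), adjusted p = 0.00192, a 2.82-fold fall. Its other, dimmer probe sets gave -0.51 and 0.11, the latter not called. Kynu, kynureninase of tryptophan breakdown, fell by nearly the same amount at both stages (-1.22 and -1.04; over both -1.13 ± 0.11 (SE), adjusted p = 0.00227), but its second, dimmer probe set gave -0.1 and was not called. Urah, which acts in the breakdown of uric acid (-1.6), and Aass, the first enzyme of lysine breakdown (-1.35), had adjusted p of 0.00279 and 0.00598.

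The surface tetraspanin Tspan8 had the deepest shared fall with Cfi (-1.81 ± 0.31 (SE), adjusted p = 0.0148). Wild type pools gave Tspan8 levels of 9.22, 8.62 and 10.01 at E8.5 and Norrin pools 8.21, 7.12 and 7.39; at E10.5 they gave 10.87, 10.35 and 10.87 and 7.74, 9.89 and 8.74. Norrin replicate 2 at E10.5 was the highest of its group (9.89), still below the lowest wild type array (10.35). The 4 other probe sets of Tspan8, all dimmer, gave smaller falls: -0.78, -0.9 and -1.22 were called, and -0.26 was not. Tns1, tensin, which ties integrins to actin, changed by -1.14 (adjusted p = 0.00143), with -0.34 and -0.4 on its other probe sets. The last of the 15, Apoa4, had 0.942 as the smaller effect of the 2 stages and the next gene, Eps8l3, 0.928. AU015836, known by a clone name only, was passed over as the naming rule allows, though it met the other criteria and its smaller stage effect (1.05) ranks above that of Kynu, Aass, Plg and Apoa4. It changed by -1.18 (adjusted p = 0.0168, limma), and its call was lost without the pairing (adjusted p = 0.0507).

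**Figure D4:**
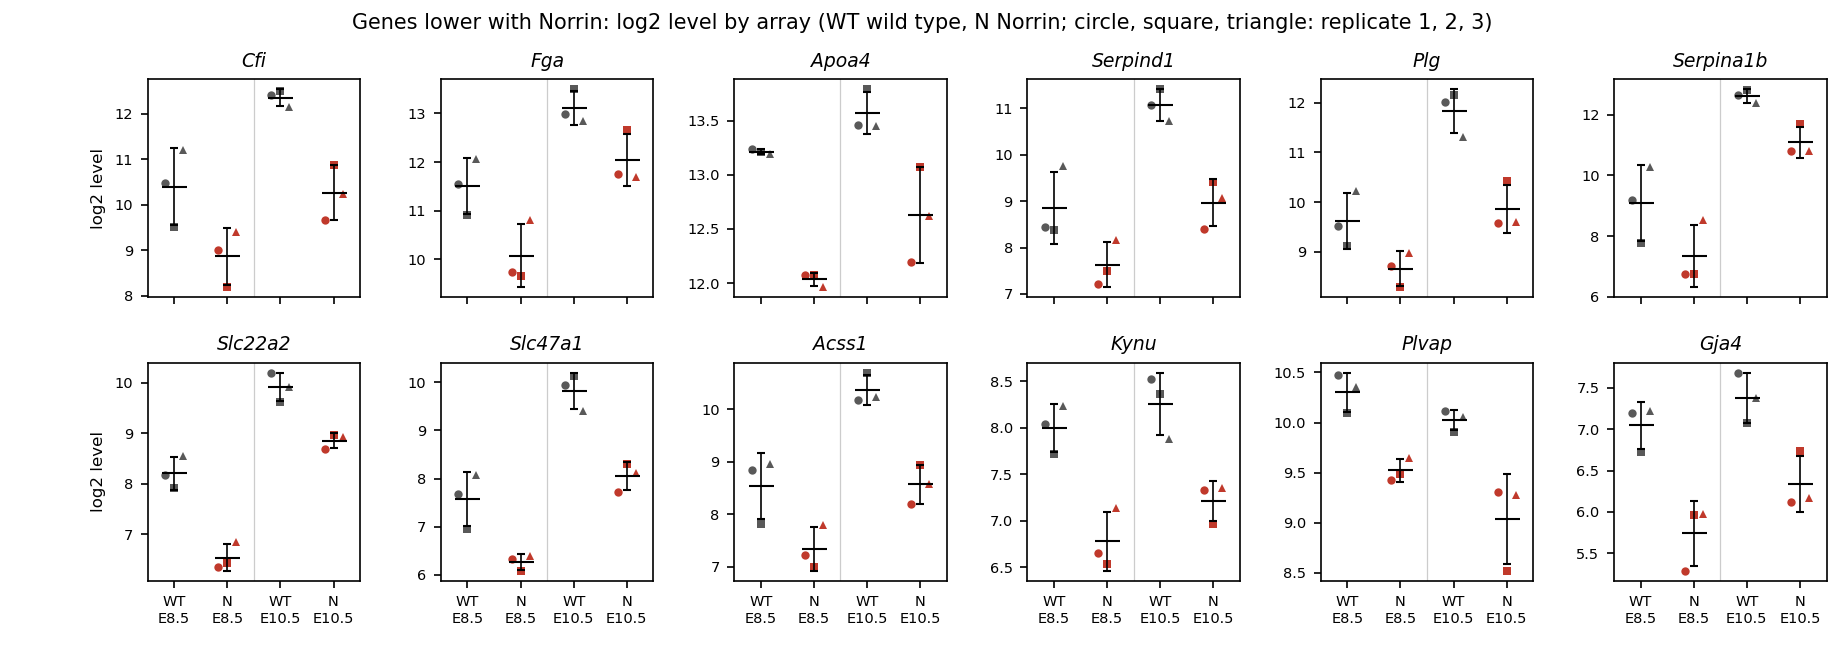
Log2 level (vertical axis) of 12 genes that fell, on each of the 12 arrays, with columns, symbols and bars as in the plot of genes that rose. Serpina1b overlaps between genotypes at E8.5, and in the other 11 panels the 3 Norrin arrays lie below the 3 wild type arrays of the same stage.

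Calls among genes of amino acid and glucose metabolism were downward as well. Of 20 measured 6 were called lower and 0 higher (30.0%, against 6.32% of all genes), and 3 of the 6 were shared. Hgd, an enzyme of tyrosine breakdown (-1.74 ± 0.34 (SE), adjusted p = 0.0236), and Fbp2, a fructose bisphosphatase (-1.78 ± 0.43 (SE), adjusted p = 0.0446), fell mostly at E10.5 (interaction adjusted p = 0.00712 and 0.000306). Pygl, glycogen phosphorylase, fell too (-1.34 ± 0.28 (SE), adjusted p = 0.0299), as did Fah and Tdo2. Without the pairing 2 were called, Hgd and Aass, and Pygl and Fbp2 were not (adjusted p = 0.0669 and 0.0539). Of 19 genes of fatty acid and sterol metabolism 1 was called (5.26%, a share below that of all genes), Cpt1a (-0.54 ± 0.13 (SE), adjusted p = 0.0426), and it lost its call without the pairing (adjusted p = 0.16). The median of that list was 0.15 at E8.5, where 13 of the 19 were above 0, and it was -0.34 at the later stage.

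Vessel genes gave no common direction. Of 24 endothelial genes 3 were called higher and 4 lower (29.2%), with a median of -0.00425; without the pairing 2 were called, Sox17 and Plvap. Plvap, the protein of the diaphragms that span endothelial pores, had log2 levels of 10.47, 10.09 and 10.35 in wild type against 9.43, 9.49 and 9.65 in Norrin (E8.5), and of 10.11, 9.91 and 10.05 against 9.31, 8.52 and 9.28 (E10.5). It did not overlap at either stage and fell 1.84-fold (-0.88 ± 0.1 (SE), adjusted p = 0.00446). Clec14a (-0.72 ± 0.14 (SE), adjusted p = 0.0218) and Vwf (-0.64 ± 0.14 (SE), adjusted p = 0.0361), both made by endothelium, overlapped at 1 stage at least and lost their calls without the pairing (adjusted p = 0.253 and 0.0699). Ptprb fell and Esam and Sox7 rose.

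Gja4, the gap junction protein connexin of arterial endothelium, was 1 of 2 called among 18 arterial and Notch genes, the other being Sox17. This is 11.1%, against 6.32% of all genes. At E8.5 Gja4 read 7.19, 6.72 and 7.22 in the wild type pools and 5.29, 5.96 and 5.98 in the Norrin pools, and at E10.5 7.68, 7.07 and 7.37 and 6.12, 6.73 and 6.17. The groups were apart at both stages, with an effect of -1.17 ± 0.18 (SE), adjusted p = 0.0102, a 2.24-fold fall. Gja5 (-0.33 ± 0.12 (SE), adjusted p = 0.123) and Acvrl1 (-0.31 ± 0.08 (SE), adjusted p = 0.0552) were not called. Of 16 angiogenic signals only Vegfc, a growth factor of lymphatic vessels, was called (6.25%, close to the share of all genes). Vegfc fell (-0.9 ± 0.14 (SE), adjusted p = 0.0112) more at E8.5 (-1.27) than at E10.5 (-0.52), and was not called without the pairing (adjusted p = 0.135). Flt1, a VEGF receptor, was unlike the shared genes: 0.033 at E8.5, 1.69 at E10.5 and no call over both (0.86 ± 0.28 (SE), adjusted p = 0.103; interaction adjusted p = 0.0022).

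The single effect fitted over both stages was below 0 for all 23 erythroid genes measured, with a median of -0.675. At E8.5, where 5 of the 23 were above 0, the median was -0.13, and at E10.5 it was -1.17. Over both stages 5 of the 23 were called lower (21.7%). Of those called, 1, Fech, the last enzyme of heme synthesis, was apart at both stages (-0.66 ± 0.13 (SE), adjusted p = 0.0255). Rhag, a membrane protein of red cells, had log2 levels of 9.75, 8.58 and 8.14 in wild type against 8.48, 8.0 and 6.81 in Norrin (E8.5), and of 8.2, 9.6 and 10.14 against 6.95, 7.6 and 7.32 (E10.5). The groups overlapped at E8.5 and were apart at E10.5, all 6 pairs moved down, and the effect was -1.54 ± 0.24 (SE), adjusted p = 0.0112. Klf1, the erythroid factor (-1.15 ± 0.29 (SE), adjusted p = 0.0491), and Slc4a1, the band 3 anion exchanger (-1.03 ± 0.24 (SE), adjusted p = 0.0383), were called with the pairing and not without it (adjusted p = 0.0805 and 0.254), as was Rhag (adjusted p = 0.0805). The wild type pools at E10.5 differed: the median deviation of the list from their mean was -0.52 in replicate 1, -0.0049 in replicate 2 and 0.52 in replicate 3, and -1.16 to -1.37 in the Norrin pools. Among 19 macrophage genes Fcgr3 (-1.36 ± 0.33 (SE), adjusted p = 0.0448) and Csf1r (-0.39 ± 0.07 (SE), adjusted p = 0.0208) were called lower (10.5%, against 6.32% of all genes). Neither was called without the pairing.

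Genes of hypoxia and glycolysis had a median effect of 0.0022 at E8.5, 0.77 at E10.5 and 0.43 over both. Of 23 measured, 6 were called higher (26.1%, against 6.32% of all genes), and 2 of the 6 were shared. P4ha1, a prolyl hydroxylase that acts on collagen, rose at each stage (0.73 and 1.22; over both 0.98 ± 0.1 (SE), adjusted p = 0.00279). The log2 levels of P4ha1 in wild type were 9.61, 9.92 and 9.77 at E8.5 and 10.01, 10.11 and 9.92 at E10.5, and those in Norrin were 10.21, 10.6 and 10.67 and 11.23, 11.31 and 11.17. Ddit4, a stress-induced inhibitor of mTORC1 (1.21 ± 0.3 (SE), adjusted p = 0.0488), and Hk2, hexokinase 2 (1.09 ± 0.2 (SE), adjusted p = 0.0191), rose more at E10.5 (interaction adjusted p = 0.0357 and 0.0434). Without the pairing 2 of the list were called, P4ha1 and Hk2. Ddit4 lost its call in 10 of 16 other settings, that one included (adjusted p = 0.0582; 0.00151 to 0.117 over all 16, limma). Pfkfb3 (0.98 ± 0.28 (SE), adjusted p = 0.071) was not called.

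Immediate early and stress genes gave 2 calls higher and 1 lower of 18 (16.7%, against 6.32% of all genes). The factor Klf4 rose at both stages (1.5 ± 0.23 (SE), adjusted p = 0.00991), with log2 levels of 7.43, 7.51 and 6.61 in wild type against 7.88, 8.23 and 8.48 in Norrin (E8.5), and of 7.63, 8.29 and 7.63 against 9.73, 10.06 and 9.76 (E10.5). Jun rose mainly at E10.5 (1.32 ± 0.26 (SE), adjusted p = 0.025; interaction adjusted p = 0.0022), and Gadd45a fell (-0.54 ± 0.1 (SE), adjusted p = 0.0215), without a call when the pairing was dropped (adjusted p = 0.154). The list stood high on 1 array, Norrin replicate 2 at E10.5, with a median deviation of 1.18 from wild type against 0.14 and 0.20 in the other Norrin arrays of that stage. None of 20 proliferation genes was called by limma (1 had an unadjusted p below 0.05), and 0 without the pairing. Of 9 interferon genes 1 was called (11.1%), Ifit2 (0.65 ± 0.16 (SE), adjusted p = 0.0494), and not without the pairing (adjusted p = 0.0825).

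The trophoblast list stood out in a single Norrin pool of each stage. The 12 measured trophoblast genes stood 0.894 above wild type, as a median, in Norrin replicate 2 at E8.5 and 1.89 above in Norrin replicate 2 at E10.5, and between -0.27 and 0.19 on the other 10 arrays. Their mean log2 level was 6.74 to 6.9 in wild type and 6.61 to 7.7 in Norrin at E8.5, and 6.83 to 7.55 against 7.27 to 9.73 at E10.5. Prl8a9, a placental prolactin-like hormone, read 7.03 and 10.44 on those 2 arrays and 3.85 to 4.32 on the other 10, and Tpbpa, a marker of spongiotrophoblast, 5.85 and 11.9. Neither was called (1.44 ± 0.78 (SE), adjusted p = 0.294 and 1.24 ± 0.76 (SE), adjusted p = 0.35). None of the 12 genes was below a log2 level of 5 on all arrays. With both replicates 2 left out, 211 of the 399 shared genes remained among the 344 that then met the rule, and 28 of the 30 named genes remained called, all but Abcb1b and Plac1. Plac1 is itself of the trophoblast list, and its highest arrays were Norrin replicate 2 (11.15 and 10.67). The part of this RNA in the other results was not tested.

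Of 10 decidua genes 3 were called higher and 1 lower (40.0%, against 6.32% of all genes). Igfbp1, a binding protein of insulin-like growth factors (1.71 ± 0.29 (SE), adjusted p = 0.0151), and Bmp2 (1.05 ± 0.12 (SE), adjusted p = 0.00405) rose in 6 of 6 pairs, but neither was called without the pairing (adjusted p = 0.113 and 0.212). The decidual hormone Prl8a2 was not called (0.76 ± 0.49 (SE), adjusted p = 0.375). The mean level of the list was 7.22 to 7.27 in wild type and 7.17 to 7.52 in Norrin at E8.5, and 7.87 to 8.08 against 8.42 to 8.85 at E10.5. At E10.5 the median deviation of the decidua list from wild type was 0.589 and 0.665 in Norrin replicates 1 and 3 and 0.118 in replicate 2, the pool with the high trophoblast list. The part of decidua in the results was not tested.

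**Figure D5:**
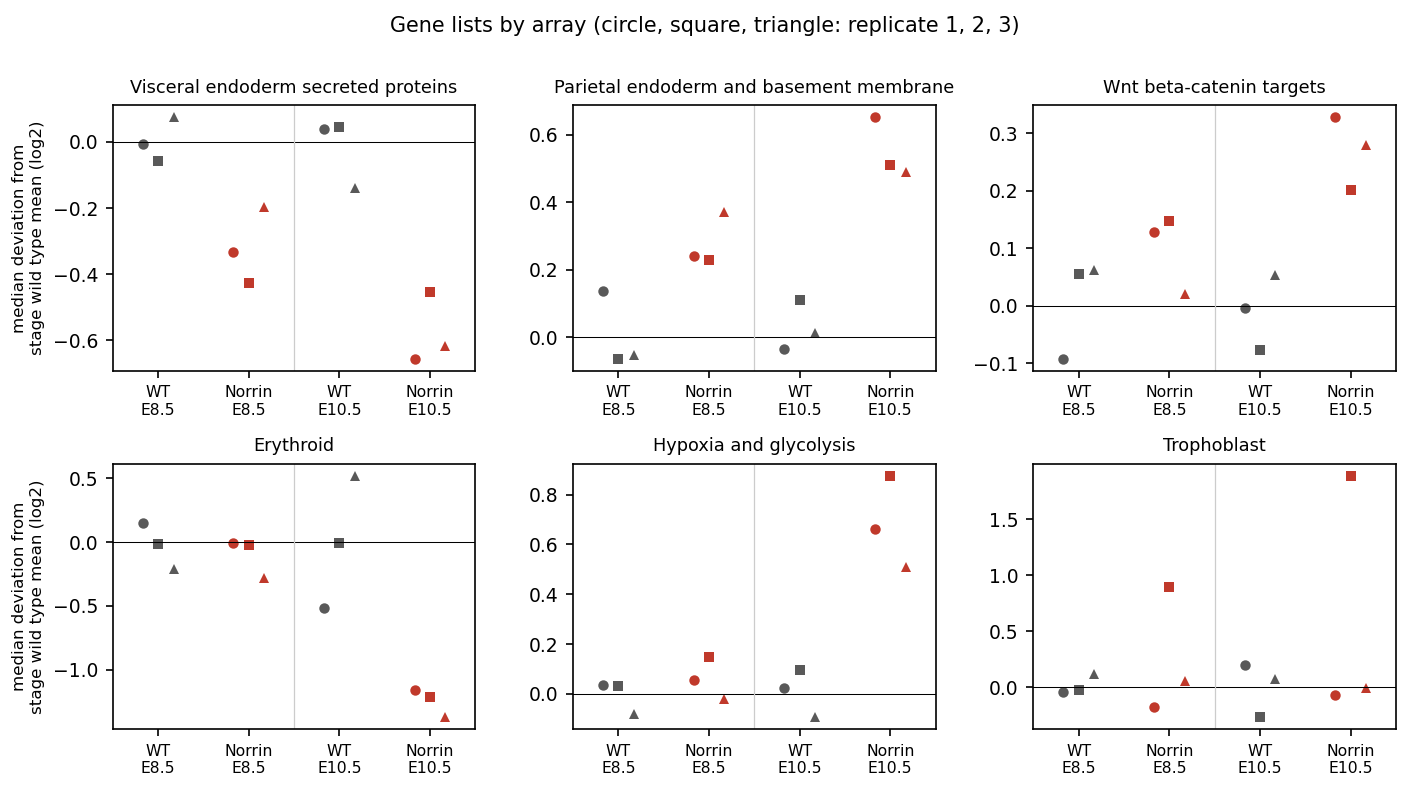
Median deviation (vertical axis, log2) of the members of 6 gene lists from the wild type mean of the stage, 1 symbol per array; grey is wild type (WT), red is Norrin, and circle, square and triangle are replicates 1, 2 and 3. The visceral endoderm list is lower and the parietal endoderm list higher in all Norrin arrays of both stages, and the trophoblast list stands out in Norrin replicate 2 at both (0.894 and 1.89).

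Other probe sets give a further reading of the shared genes on the same arrays. Of the 399 genes 198 had other probe sets, 349 in all. The effect had the same sign in 317 of these (90.8%), against 70.8% of 16752 for all genes, and 144 were called with that sign (41.3%, against 886 or 5.29% for all genes). Smaller rises were read by the dimmer probe sets of Nefl (1.86), Retreg1 (1.28), Dkk1 (0.86) and Tnfrsf19 (0.72 and 0.46), and a smaller fall, not called, by that of Hgd (-0.18). Probe sets of a gene share the RNA and are no replicates.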

How the data were processed

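RNA of 12 yolk sac pools was hybridised to Affymetrix mouse arrays, and the authors deposited 1 log2 value per probe set and array. The submitters' processing notes name RMA, with no version. Pairs of arrays within a stage hold 26 to 93 identical values and pairs across stages 0, so levels were compared within a stage only. Of 45101 probe sets 34945 with 1 gene were tested; control probe sets (64) and those with several genes (932) or no name here (9160) were left out. Symbols came from the platform annotation (34741 matched RefSeq, GRCm38.p6), gene positions and promoter windows from RefSeq. A gene stands by its probe set with the highest mean, which gave 18193 genes.

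limma 3.58.1 (R 4.3.3, lmFit and eBayes defaults, two-sided, Benjamini-Hochberg over 34945 probe sets, threshold 0.05) fitted genotype with replicate number within stage as 6 fixed blocks (5 residual and 4.32 prior degrees of freedom), and a second model with 1 effect per stage (4 and 4.95), which gave the interaction and the test at both stages. In the first model a difference between stages adds to the residual. In the second model the tests of both stages use the same residual variance per gene. The numbers were taken to pair the samples. Deviations of same-numbered arrays from their group means correlated at 0.726, 0.318 and 0.73 at E8.5 and 0.506, 0.209 and 0.219 at E10.5. The highest correlations with another number were 0.296, 0.296 and -0.0584 at E8.5 and -0.195, 0.156 and 0.156 at E10.5. Each pair was thus above them, but by little for replicate 2 of both stages and replicate 3 at E10.5. The labels do not say what a number marks.

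Named genes were the up to 15 shared genes per direction with the largest smaller stage effect and a level in the higher genotype at or above the median, up to 4 called and 2 uncalled members of each of 23 lists, and Ndp, Fzd4, Lrp5, Lrp6 and Tspan12; other called list members, and AU015836, a clone name that the rule passes over, are named without values or after their values were seen. The members and lists were chosen with earlier results of these data known. Other blocks, scalings, filters, weights and left-out pools were tried. The fits were tested on simulated data. Arrays have no read depth; their number limits the precision.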

Additional observations from a re-analysis of the deposited data

Results flagged for a closer look

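Among the named genes 25 had a Norrin effect that differed between the stages (limma interaction, adjusted p under 0.05; 302 of all 18193 genes, 1.66%). The value given is the effect at E10.5 minus that at E8.5 on the log2 scale. It was below 0, a deeper fall or a lesser rise at E10.5, for Saa4 (-2.72), Cebpa (-2.59), Fbp2 (-2.59), Serpina1c (-2.12), Hgd (-1.97), Adh1 (-1.94), Hemgn (-1.89), Slc25a37 (-1.76), Pygl (-1.56), Nefm (-1.34) and Cpt2 (-1.05). It was above 0 for Ifit1 (2.54), Ccn2 (2.11), Egln3 (1.96), Flt1 (1.65), Ier3 (1.65), Ddit4 (1.62), Igfbp1 (1.62), Jun (1.55), Ccn1 (1.52), Frzb (1.33), Rspo1 (1.08), Hk2 (1.05), Tgfbi (0.978) and Vegfc (0.75, a lesser fall at E10.5). Without the pairing by replicate number the difference was called for 3 of them: Saa4 (adjusted p = 0.000847), Flt1 (adjusted p = 0.00678) and Fbp2 (adjusted p = 0.0341).

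Saa4, a serum amyloid protein of high-density lipoprotein, was changed by -0.16 at the earlier stage and by -2.88 at the later. Its wild type level was 6.43 ± 0.17 (SD, n = 3) at E8.5 and 8.98 ± 0.19 (SD, n = 3) at E10.5, and its Norrin level 6.27 ± 0.21 and 6.1 ± 0.14 (SD, n = 3 each). Cebpa, which drives liver and myeloid gene expression, was changed by -0.40 at the earlier stage, with levels of 7.25 ± 0.64 in wild type and 6.86 ± 0.45 in Norrin, and by -2.99 at the later, with 10.8 ± 0.25 and 7.78 ± 0.48 (SD, n = 3 each).

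Outside the named probe sets, 104 of 9160 without a gene name here passed the threshold over both stages (1.14%), 78 higher and 26 lower, with a largest effect of 2.42. Groups of 3 arrays were not tested for outlying samples.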

How the results depend on the processing

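Over both stages 2072 probe sets were called, 61.6% of them higher. Without the replicate block 400 were called over both stages (53.2% higher), with 222 shared genes in place of 399. The counts were then 980 in place of 3853 at E10.5 and 16 in place of 285 at E8.5. They were 4 in place of 45 in the test at both stages and 26 in place of 485 for the difference between stages. With a random block the counts at E8.5 and for the difference were 518 and 736. Testing the average of the stage effects called 4180, since a difference between stages then leaves the residual. With 1 probe set per gene, fewer were tested, and 1234 were called over both stages and 2400 at E10.5. With dim probe sets left out 85 passed the test at both stages. With both replicates 2 left out, a choice made after seeing the data, 752 were called over both stages (52.1% higher) and 239 for the difference. Quantile normalization of all 12 arrays called 1727 (51.9% higher; 385 shared genes, 142 higher and 243 lower, 303 of them among the 399). Centring, trend and robust fitting and array weights kept the count over both stages within 1886 to 2260. Leaving out each pair of arrays gave 597 (without E10.5 replicate 1) to 2069 called over both stages, 238 (without E10.5 replicate 1) to 554 shared genes, 1807 to 3970 at E10.5, 31 to 386 at E8.5, 1 to 49 at both and 92 to 422 for the difference. The 30 named shared genes kept their direction in each setting that tested them (27 of them with dim probe sets left out, 30 in the others); Abcb1b, Plac1 and Tspan8 lost a call in some. Effects near 0 turned sign: the Norrin main effect of Fzd4 was -0.0265 with quantile normalization and -0.00534 to 0.0604 with a pair left out, the Norrin main effect of Ndp was 0.0188 with quantile normalization, the Norrin main effect of Tspan12 was -0.00645 to 0.131 with a pair left out, and the Norrin main effect of Prl8a9 (-0.0898) and the Norrin main effect of Tpbpa (-0.0463) were below 0 with both replicates 2 left out. The cause of these moves was not tested further.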

Other observations

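Gene groups that were put together after the values had been seen describe the fall in more detail, with no test. Of 27 measured coagulation and complement proteins 13 were called lower and 0 higher (48.1%, against 6.32% of all genes), with a median effect of -0.46. Of the 13, 7 were shared, and 6 kept their call without the pairing by replicate number. The 13 include Cfi, Serpind1, F13b (-1.51), Plg and Mbl1 (-0.52), which kept it. Kng1 (-1.06), the plasmin inhibitor Serpinf2 (-0.81) and prothrombin, F2 (-0.71), also among the 13, lost it (adjusted p = 0.253, 0.127 and 0.131, limma). F7, F9, F10 and F12 lay between -0.10 and 0.0084 and were not called. Of 5 chains of the inter-alpha-trypsin inhibitor family 3 were called lower (60%), Itih2 (-1.11), Ambp (-1.04) and Itih1 (-0.48, lost without the pairing). Of 8 enzymes that lead from tryptophan towards NAD 5 were called lower (62.5%): Haao (-1.36), Kynu (-1.13), Kmo (-0.98), Tdo2 (-0.70) and Nadsyn1 (-0.36). Tdo2 and Nadsyn1 lost their calls without the pairing. Qprt (-0.22) and Afmid (-0.16) were not called.

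Of 14 genes of bile acid metabolism and its nuclear receptors 8 were called lower (57.1%, against 6.32% of all genes), all of them shared. Without the pairing 5 of the 8 kept their call. Among the 8 were the bile acid receptor gene Nr1h4 (-1.28), Acox2 (-1.33), Hsd3b7 (-0.77), the bile salt exporter Abcb11 (-0.55) and Vdr (-0.54). Of 347 genes with a solute carrier symbol 44 were called (12.7%, against 6.32% of all genes), 9 higher and 35 lower. Without the pairing 13 of the 44 kept their call. Of the 35 lower genes 18 were shared, such as Slc22a8 (-1.53), Slc34a2 (-1.05), Slc23a1 (-1.03) and Slc40a1 (-0.80). Higher at both stages were Slc6a20b (1.13) and Slc16a10 (0.43), both lost without the pairing. Of 15 transcription factors of the GATA, Klf and Sall families 5 were called higher and 2 lower (46.7%, against 6.32% of all genes). The 5 rose at both stages: Klf4 (1.51), Sall4 (1.13), Gata4 (0.82), Klf5 (0.73) and Gata6 (0.58). Klf1 (-1.15) and Klf3 (-0.76) were called lower; these and Gata6 lost their calls without the pairing, and Gata1 (-0.675) and Gata2 (0.54) were not called.

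At the threshold of the test at both stages, genes outside the lists also passed. Fabp1, a fatty acid binding protein, was higher (1.03 at E8.5 and 1.47 at E10.5) while most plasma proteins named above were lower. Scube2, a secreted membrane-associated protein, had effects of 1.02 and 2.11, and Zfp703 1.26 and 0.93. Lower at both were Fcgrt, the neonatal Fc receptor (-1.05 and -1.86), and the collagens Col14a1 (-1.35 and -0.91) and Col13a1 (-0.85 and -0.86). The basement membrane collagens Col4a1 and Col4a2 rose. Without the pairing Fabp1, Scube2, Zfp703, Fcgrt, Col14a1 and Col13a1 did not pass the test at both stages. Fabp1 and Fcgrt are not among the shared genes, since their genotypes overlapped at 1 stage at least.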
